A study of Mus musculus with 6 samples.

Results

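The genes described here are 44 genes of the unfolded protein response and of the secretory pathway. They were taken by gene symbol from the 21017 genes of the deposited count table, and all 44 had a row. They comprise 4 sensors and signalling genes, 10 chaperones of the endoplasmic reticulum (ER), 7 disulfide enzymes, 7 genes of ER-associated degradation, 9 genes of translocation into the ER and 7 genes of vesicle coats and retrieval.

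The RNA came from ILC2s (group 2 innate lymphoid cells), lymphocytes of tissues that release type 2 cytokines and lack the antigen receptors of T and B cells. All 6 libraries came from lungs of C57BL/6J mice, 8 weeks old, of the genotype IL-10GFP, a green fluorescent reporter of Il10. The mice had received 3 intranasal doses of recombinant IL-33 of 0.5 µg each. The labels call the cells freshly sorted, and the protocol states that a culture of 48 h followed the sort, in the presence of IL-4, IL-2 and IL-7 at 10 ng/mL each. A second sort then separated ILC2s that made IL-10 from those that did not, called IL-10-producing and IL-10-negative here, with 3 libraries of each and 10 ng of RNA per library. Both populations therefore share the reporter, IL-33 and the culture, and there was no group without them. Whether the 3 libraries of a population stem from different mice or cultures is not in the labels. The p-values thus rest on the spread among these libraries alone, and that spread may be technical.

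Proteins that are secreted or placed in membranes fold in the ER, where chaperones and disulfide enzymes act on them. When unfolded proteins accumulate, the sensors IRE1 (gene Ern1), PERK (Eif2ak3) and ATF6 start the unfolded protein response: IRE1 splices the mRNA of the transcription factor XBP1, PERK slows translation by phosphorylating eIF2α, and ATF6 is cleaved to release a transcription factor. XBP1 and ATF6 then raise the transcription of chaperones, folding enzymes and degradation genes, and XBP1 is known for its part in cells that secrete much protein, such as plasma cells.

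The 6 libraries held between 47012941 and 69511433 estimated counts. Il10, whose reporter was the sorting criterion, stood at 854, 839.5 and 851 CPM (counts scaled to a common library size) in the IL-10-producing and at 13.0, 14.2 and 13.4 CPM in the IL-10-negative libraries. These values follow from the sort and serve as a check of the labels. All 12 markers of ILC2s were detected in both populations, with a summed level of 15620 to 15790 against 15150 to 15300 CPM (3 rose and 6 fell). Markers of other cells were much lower in sum and differed between the populations: those of T cells summed to 91.1 to 94.7 against 173 to 178 CPM (12 of 12 fell), those of mast cells and basophils to 12.7 to 14.6 against 69.5 to 74.5 CPM (8 of 8 fell), and those of neutrophils to 2.32 to 2.802 against 38.5 to 41.5 CPM (4 of 5 tested fell). In the T-cell sum the largest values were those of Trbc2 (48.2 against 58.4 CPM) and Trbc1 (18.8 against 21.2 CPM), which fell least. Cd8a stood at 0.059 against 15.3 CPM and Trac at 0.43 against 5.95 CPM, so the sum understates the falls of such markers. Markers of B and plasma cells summed to 52.8 to 54.6 against 42.05 to 43.0 CPM (3 of 9 rose and 4 fell). Among macrophage and dendritic cell markers 1 of 8 rose and 4 fell, and among epithelial and stromal markers 1 of 3 tested rose and 1 fell. No marker with a row was at 0 throughout a population. The part of these cells in the results below was not tested, and in bulk samples fewer cells of a type and less RNA per cell cannot be told apart.

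Promoters of the unfolded protein response carry a known sequence, the ER stress response element (ERSE), which is CCAAT, any 9 bases, then CCACG. RefSeq windows on GRCm38.p6, from 250 bases before to 50 bases after the start of transcription, were found for 37 of the 44 genes (40 windows). An ERSE on either strand lay in the windows of 9 of these 37 genes (24.3%), against 37 of all 27025 genes of the table (0.137%). By role, it was found in 5 of 8 chaperones with a window, 3 of 7 disulfide enzymes and 1 of 6 degradation genes. It was in none of the windows of 3 sensors and signalling genes, 7 translocation genes and 6 coat genes. The stretches below show each ERSE before a start site, since the presence of this element differed between the roles. They run 5′ to 3′ on the strand of the gene, and the capitals mark the ERSE, which reads as its reverse complement (CGTGG, 9 bases, then ATTGG) where it lies on the other strand.
Hspa5: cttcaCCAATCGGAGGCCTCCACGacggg
Hsp90b1, distal: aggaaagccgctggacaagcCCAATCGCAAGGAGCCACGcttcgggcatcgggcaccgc
Hsp90b1, proximal: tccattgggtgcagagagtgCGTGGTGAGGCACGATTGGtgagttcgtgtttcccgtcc
Calr: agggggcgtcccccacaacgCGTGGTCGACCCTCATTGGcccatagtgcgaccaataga
Canx: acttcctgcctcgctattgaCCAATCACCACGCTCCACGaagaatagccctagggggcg
Dnajc3: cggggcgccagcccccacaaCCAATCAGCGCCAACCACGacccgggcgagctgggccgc
Pdia6: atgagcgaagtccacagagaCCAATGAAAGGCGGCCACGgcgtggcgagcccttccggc
Ero1lb: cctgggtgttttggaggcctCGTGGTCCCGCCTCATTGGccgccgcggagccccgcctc
Creld2: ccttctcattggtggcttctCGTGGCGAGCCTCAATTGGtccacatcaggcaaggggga
Syvn1: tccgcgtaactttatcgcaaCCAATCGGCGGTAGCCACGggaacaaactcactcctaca

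The stretch of Hspa5 is chr2:34772020-34772048 on the plus strand, inside the first exon that GENCODE M21 gives this gene, which starts farther upstream than the RefSeq start. Those of Hsp90b1 are chr10:86705618-86705676 and chr10:86705513-86705571 on the minus strand. The other stretches on the minus strand are chr8:84847055-84847113 for Calr and chr11:50325780-50325838 for Canx. On the plus strand lie chr14:118937807-118937865 (Dnajc3), chr12:17266471-17266529 (Pdia6), chr13:12565662-12565720 (Ero1lb), chr15:88819500-88819558 (Creld2) and chr19:6046512-6046570 (Syvn1). The 9 stretches other than that of Hspa5 overlap no exon of GENCODE M21.

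The ERSE-II, a shorter element of ATTGG, any base, then CCACG, was in the windows of Herpud1 and Dnajb11 (2 of 37, 5.41%), against 12 of 27025 genes (0.0444%). In Herpud1 it lay before the start of transcription, in chr8:94386357-94386407 on the plus strand:
Herpud1: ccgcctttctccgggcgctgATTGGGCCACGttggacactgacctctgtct

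The core TGACGTGG, known from sites of XBP1 and ATF6, was found on either strand in Sec24d and Copb1 (2 of 37), against 193 of 27025 genes (0.714%). No matched gene held more than 1 of these 3 elements. Many of the 44 genes are textbook targets of the unfolded protein response, so an ERSE among them is no independent observation, and a match is a description of letters, not of binding. Among the 9 genes with an ERSE, 5 rose, 3 fell and 1 did not pass the test described next (median log2 difference 0.09). Among the 28 matched genes without it, 8 rose, 7 fell and 13 did not pass (median -0.03). Genes with the element thus stood on both sides: Hsp90b1, Pdia6, Calr, Canx and Creld2 rose, Ero1lb, Syvn1 and Dnajc3 fell, and Hspa5 did not pass. Over all genes tested, 17.1% rose and 18.6% fell. Among the 9476 tested genes at or above the level of the lowest of the 44, 25.5% rose and 23.0% fell.

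The comparison asks how these genes differ between ILC2s that make IL-10 and ILC2s that do not. Levels below are CPM scaled with TMM factors, differences are log2 fold changes of IL-10-producing over IL-10-negative libraries, and adjusted p-values are from edgeR's quasi-likelihood test with Benjamini-Hochberg adjustment over all 16654 genes tested (threshold 0.05). All 44 genes passed the filter on low counts, and the lowest count of any of them in a library was 366 (Sec61g). Of the 44 genes, 16 rose (36.4%), 12 fell (27.3%) and 16 did not pass. Over all genes tested, 35.7% changed, 17.1% higher and 18.6% lower. Among the 9476 tested genes at or above the level of the lowest of the 44, 48.5% changed, 25.5% higher and 23.0% lower. The differences were small: rises ran from 1.05-fold to 1.15-fold, and all falls but that of Ern1 left between 0.821 and 0.952 of the IL-10-negative level. The median difference of the 44 genes was -0.01, against -0.0038 for all genes tested, and the median absolute difference was 0.088, against 0.14 for all genes tested and 0.095 for the 9476 genes at these levels.

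Such differences passed because the libraries of a population lay close together. The coefficient of variation between libraries had a median of 1.32% over the 44 genes in IL-10-producing and 1.37% in IL-10-negative cells. All 3 libraries of IL-10-producing cells lay above all 3 of IL-10-negative cells for 17 genes and below them for 14. Over all genes tested, the populations did not overlap for 45.2%, 21.7% higher and 23.5% lower. That share also covers genes below the level of all 44 genes, and it was not taken for the 9476 genes alone. With edgeR's glmTreat, which asks whether a change exceeds 1.2-fold, only Ern1 of the 44 genes passed. Of all genes tested 7.91% did, 2.44% higher and 5.46% lower, and of the 9476 genes at these levels 7.12%, 2.99% higher and 4.14% lower.

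The split into higher and lower calls depends on the scaling. Without TMM, with library size only, 13 of the 44 genes rose and 18 fell, and the share of higher calls over all genes went from 47.8% to 36.8%. The median of all genes tested then moved from -0.0038 to -0.03. The calls of P4hb, Creld2 and Edem2 were lost, and Atf6, Derl2, Sec61a1, Spcs2, Copa and Copb1 passed as lower. None of the 28 changed genes turned its direction in any of the 15 alternatives run, and 21 of them, 13 higher and 8 lower, passed in all 15.

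**Figure D1:**
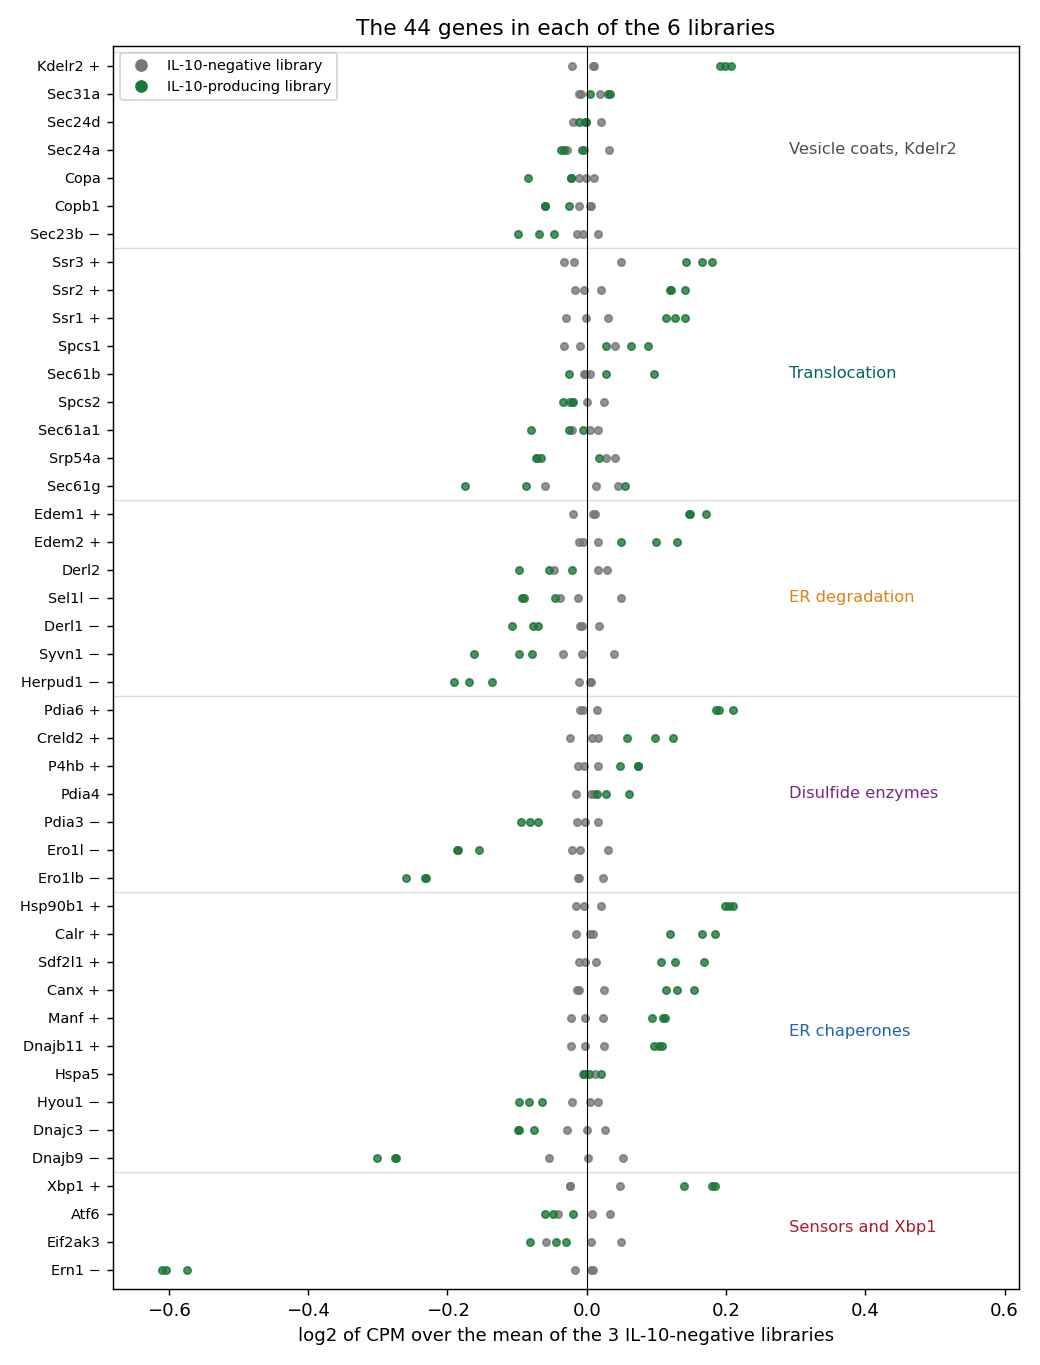
The 44 genes by role, with each of the 6 libraries as a point at the log2 of its CPM over the mean of the 3 IL-10-negative libraries (grey IL-10-negative, green IL-10-producing); + and − after a name mark genes that rose (16) or fell (12). Ern1 stands far to the left at about -0.60, the next lowest gene is Dnajb9 at about -0.28, and the rises end at about 0.20 with Hsp90b1.

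The sensors and signalling genes differed from each other in direction. Values of these 4 genes and of Hspa5 were chosen for print by rule; the other members given by library were picked after their values had been seen. Ern1 encodes IRE1, the kinase and endoribonuclease that splices the Xbp1 mRNA (ENSMUSG00000020715.9, chr11:106394650-106487852). It stood at 117, 119.8 and 117 CPM in the IL-10-producing and at 176, 179.6 and 179 CPM in the IL-10-negative libraries. The highest IL-10-producing library was thus far below the lowest IL-10-negative one. Ern1 fell by 0.60 on the log2 scale (SE 0.023, adjusted p = 1.81e-16), to 0.662 of the IL-10-negative level, and passed the test against 1.2-fold with an adjusted p of 2.1e-12 (edgeR).

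Xbp1, the transcription factor made from the mRNA that IRE1 splices (ENSMUSG00000020484.18, chr11:5520659-5525893), went the other way. Its levels were 369, 359 and 370.1 CPM in IL-10-producing and 336, 320.1 and 320.3 CPM in IL-10-negative libraries, without overlap. The rise was 0.17 on the log2 scale (SE 0.022, edgeR adjusted p = 7.7e-07), or 1.12-fold. Counts per gene do not separate the spliced from the unspliced form of the mRNA, so they do not measure the activity of IRE1.

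Atf6, the sensor that is cut in the Golgi (ENSMUSG00000026663.6, chr1:170704674-170867771), stood at 159, 157 and 162 CPM in IL-10-producing and at 159.5, 165 and 168 CPM in IL-10-negative libraries. Eif2ak3, which encodes PERK (ENSMUSG00000031668.14, chr6:70844515-70905245), stood at 53.6, 53.05 and 51.7 against 56.6, 54.95 and 52.55 CPM. The libraries of both genes overlapped, and neither passed. The 95% confidence interval of the log2 difference was -0.09 to 0.01 for Atf6 (adjusted p = 0.17) and -0.12 to 0.02 for Eif2ak3 (adjusted p = 0.3). In the same libraries the T-cell, mast cell and neutrophil markers were lower, as given above, and their part in the fall of Ern1 was not tested.

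**Figure D2:**
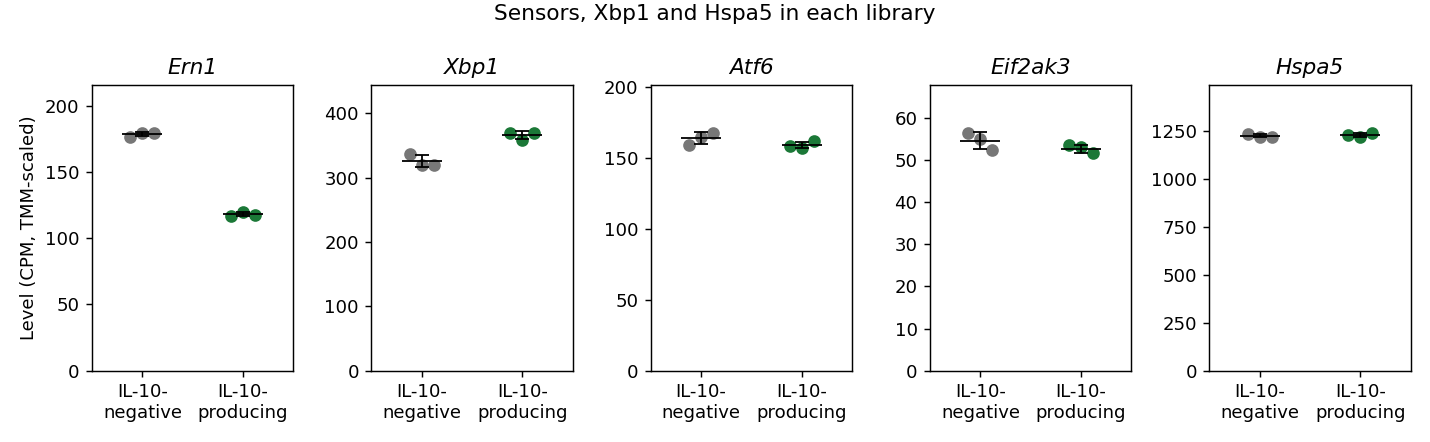
Levels of Ern1, Xbp1, Atf6, Eif2ak3 and Hspa5 in CPM (linear axes from 0), with a point for each library and bars for the mean ± SD of 3 libraries. Ern1 is lower (118 against 178 CPM) and Xbp1 higher (366 against 326 CPM) in IL-10-producing libraries, while the points of Atf6, Eif2ak3 and Hspa5 overlap between the populations.

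Of the 10 chaperones, 6 rose, 3 fell and 1 did not pass (median difference 0.10). The gene that did not pass was Hspa5, which encodes BiP, the central chaperone of the ER and a standard readout of the unfolded protein response (ENSMUSG00000026864.13, chr2:34771970-34777547). It stood at 1227, 1221 and 1242 CPM in IL-10-producing and at 1234, 1221 and 1219 CPM in IL-10-negative libraries. The populations overlapped, and the difference of 0.0065 had a 95% confidence interval of -0.03 to 0.04 (edgeR adjusted p = 0.801).

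The 6 chaperone genes that rose included Hsp90b1 and Calr, which had the highest levels per kilobase of exon among the chaperones. Hsp90b1, the ER form of HSP90 known as GRP94 (chr10:86690209-86705509), stood at 1768, 1775 and 1781 against 1562, 1536 and 1523 CPM. It had the largest rise of the 44 genes (log2 difference 0.20, SE 0.016, edgeR adjusted p = 1.19e-10), and the populations were far apart against their SDs (1775 ± 6.28 against 1540 ± 19.7 CPM, n = 3). Its exons share 10.3% of their bases with 1810014B01Rik on the opposite strand, and it is not known here whether the counting used strand. The lectin chaperones calreticulin and calnexin hold glycoproteins during folding. Calr (chr8:84841850-84846934) stood at 1205, 1220 and 1167 against 1078, 1063 and 1081 CPM, and Canx (chr11:50293961-50325673) at 884, 909 and 894 against 809, 831 and 811 CPM. Both rose without overlap, by 0.16 and 0.13 on the log2 scale. Sdf2l1 and Dnajb11, partners of BiP that act together, rose by 0.13 and 0.10, and Manf, a secreted protein that binds BiP, rose by 0.11.

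The 3 chaperone genes that fell all encode helpers of BiP. Dnajb9 encodes the J-domain protein ERdj4, which brings BiP to IRE1 and to degradation clients (chr12:44205559-44210326). Its levels of 39.6, 38.9 and 39.6 CPM lay below the 48.0, 49.7 and 46.2 CPM of the IL-10-negative libraries. The fall of 0.28 on the log2 scale (SE 0.038, edgeR adjusted p = 1.26e-06) was the next largest after that of Ern1. Dnajc3, the J-domain protein p58IPK, fell by 0.09, and Hyou1, a nucleotide exchange factor of BiP, by 0.08. The call of Hyou1 was lost after correction for GC content and transcript length. Within the chaperones, a J-domain gene (Dnajb11) thus rose and others (Dnajb9, Dnajc3) fell.

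Disulfide enzymes split evenly, with 3 genes higher, 3 lower and 1 that did not pass (median difference 0.03). The oxidases that recharge protein disulfide isomerases were both lower. Ero1l, also named Ero1a (ENSMUSG00000021831.9, chr14:45283087-45318771), stood at 2338, 2336 and 2388 against 2619, 2716 and 2640 CPM. Ero1lb, also named Ero1b (chr13:12565874-12611396), stood at 43.1, 43.9 and 43.9 against 51.2, 52.4 and 51.1 CPM. Neither overlapped between the populations. Ero1l fell by 0.18 on the log2 scale (SE 0.017, edgeR adjusted p = 4.16e-09) and Ero1lb by 0.24 (SE 0.035, adjusted p = 4.31e-06).

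The isomerases themselves went both ways. Pdia6, an isomerase also known as P5 (chr12:17266545-17284770), rose from 397, 392 and 390.4 CPM in IL-10-negative to 455, 449 and 447 CPM in IL-10-producing libraries, a log2 difference of 0.20 (SE 0.019, edgeR adjusted p = 4.28e-09). P4hb, the founding protein disulfide isomerase, rose by 0.07 and Creld2, an ER protein induced by stress, by 0.09. Both calls were lost with library size only, and that of Creld2 also without IL-10-negative replicate 2. Pdia3, known as ERp57 and the partner of calnexin and calreticulin, fell by 0.08, from 899 ± 9.50 to 849.5 ± 7.45 CPM (SD, n = 3), while both lectin chaperones rose. Pdia4, known as ERp72, did not pass (adjusted p = 0.194), although its libraries of 324, 332 and 321.4 CPM all lay above those of 320.6, 315 and 319.6 CPM.

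Of the 7 degradation genes, 2 rose, 4 fell and 1 did not pass (median difference -0.08). The genes that rose encode mannosidase-related proteins that mark misfolded glycoproteins. Edem1 (chr6:108828641-108859356) stood at 395, 394 and 401 against 358, 359 and 351 CPM and rose by 0.16 on the log2 scale (SE 0.019, edgeR adjusted p = 3.29e-07). Edem2 rose by 0.09, from 88.7 ± 0.854 to 94.6 ± 2.63 CPM (SD, n = 3), and lost its call with library size only and without IL-10-producing replicate 2.

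The genes that fell encode the membrane complex that exports and ubiquitinates the marked proteins. Herpud1, its stress-induced scaffold (chr8:94386438-94395377), stood at 135, 138 and 133 against 150.2, 152 and 152 CPM, without overlap. It fell by 0.16 on the log2 scale (SE 0.024, edgeR adjusted p = 3.54e-06). Syvn1, the ubiquitin ligase HRD1, fell by 0.11, its adaptor Sel1l by 0.08 and the derlin Derl1 by 0.08. Derl2, the other derlin listed, stood at 61.1 ± 1.59 against 63.5 ± 1.78 CPM and did not pass (adjusted p = 0.184). The calls of Sel1l and Syvn1 were lost after the correction for GC content and length, which leaves 2 falls, and that of Sel1l also without IL-10-producing replicate 1 or 2 or IL-10-negative replicate 3.

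Among the 9 translocation genes 3 rose and 6 did not pass (median difference 0.03). The 3 that rose were the listed subunits of the translocon-associated protein complex, which sits beside the SEC61 channel and aids the entry of certain proteins. Ssr1 (chr13:37966605-37994217) stood at 338, 345 and 341 against 312, 319 and 306 CPM. Ssr2 (chr3:88575876-88588419) stood at 187, 184 and 184 against 172, 169 and 168 CPM, and Ssr3 (chr3:65379655-65392623) at 411, 417 and 422 against 368, 385 and 364 CPM. None of the 3 overlapped between the populations, and they rose by 0.13, 0.13 and 0.16 on the log2 scale. The remaining subunit, Ssr4, from the further lists, did not pass, at 89.3 against 89.5 CPM (adjusted p = 0.938). Ssr2 shares 12.8% of its exon bases with Gm10704 on the opposite strand.

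The channel itself did not pass in any of its subunits. Sec61a1, the pore, stood at 457 ± 12.2 against 469 ± 6.11 CPM, Sec61b at 117 ± 4.97 against 114 ± 0.425 CPM and Sec61g at 8.44 ± 0.686 against 8.84 ± 0.326 CPM (SD, n = 3). Spcs1 and Spcs2, subunits of the signal peptidase that cuts signal peptides, differed by 0.06 and -0.03, and Srp54a, the subunit of the signal recognition particle that binds them, by -0.04. Of these 6 genes, Sec61g had the widest 95% confidence interval (-0.23 to 0.10), and those of the others lay between -0.12 and 0.12. Spcs1 shares 16.3% of its exon bases with Glt8d1 on the opposite strand, and Srp54a has the near-identical copies Srp54b and Srp54c, so both values are uncertain. The counts of Sec61a1 and Spcs2 passed as lower with library size only.

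Of the 7 genes of vesicle coats and retrieval, 1 rose, 1 fell and 5 did not pass (median difference -0.03). With library size only, 1 rose and 3 fell. The gene that rose is not a coat subunit: Kdelr2 encodes a receptor that returns ER chaperones with a KDEL-type end from the Golgi (ENSMUSG00000079111.3, chr5:143403838-143421901). It stood at 138, 137 and 137 CPM in IL-10-producing and at 118, 120.5 and 120.3 CPM in IL-10-negative libraries. The rise was 0.20 on the log2 scale (SE 0.024, edgeR adjusted p = 1.93e-07), close to those of Hsp90b1 and Pdia6.

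The coat of vesicles that leave the ER, COPII, was represented by 4 genes. Sec23b of its inner layer stood at 112, 108 and 109.9 against 115, 117 and 114 CPM and fell by 0.07 (edgeR adjusted p = 0.0291). That call was lost with DESeq2 and without any of IL-10-producing replicates 2 and 3 and IL-10-negative replicates 1 and 2. Sec24a and Sec24d, which select cargo, stood at 47.4 against 48.2 and at 93.3 against 93.6 CPM, and Sec31a of the outer layer at 181 against 179 CPM. Sec31a passed as higher after the correction for GC content and transcript length. Copa and Copb1 belong to COPI, the coat of vesicles that return to the ER. Their libraries lay below those of IL-10-negative cells without overlap, at 363 ± 9.01 against 374 ± 2.71 and 167 ± 2.32 against 173 ± 1.16 CPM, but neither passed (adjusted p = 0.114 and 0.0909). For the 16 of the 44 genes that did not pass, the 95% confidence intervals lay between -0.13 and 0.12 on the log2 scale, apart from that of Sec61g.

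Set against the length of all annotated exons of a gene, the disulfide enzymes and chaperones held the highest levels. This length can exceed that of the transcript present in the cells, which lowers the value of such a gene. Per kilobase of exon, IL-10-negative levels ranged 140.3-fold over the 44 genes, from 3.59 CPM per kb (Sec61g) to 503 CPM per kb (Ero1l). The median per-kilobase level was 133 for disulfide enzymes, 92.7 for chaperones, 69.7 for translocation genes, 25.6 for degradation genes, 22.6 for coat genes and 19.8 for sensors. The 10 genes with the highest levels per kilobase, led by Ero1l, Hsp90b1, Calr and Hspa5, had the same order in both populations.

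The distances within that order changed. In IL-10-negative libraries Ero1l (496 to 514 CPM per kb) lay well above Hsp90b1 (378 to 387). In IL-10-producing libraries Ero1l stood at 442 to 452 and Hsp90b1 at 438.5 to 442 CPM per kb, so that these 2 neighbours were almost level. Hspa5 (288 to 292) and Pdia3 (284 to 289.6) overlapped in IL-10-negative libraries and were apart in IL-10-producing ones (289 to 294 against 268 to 273).

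**Figure D3:**
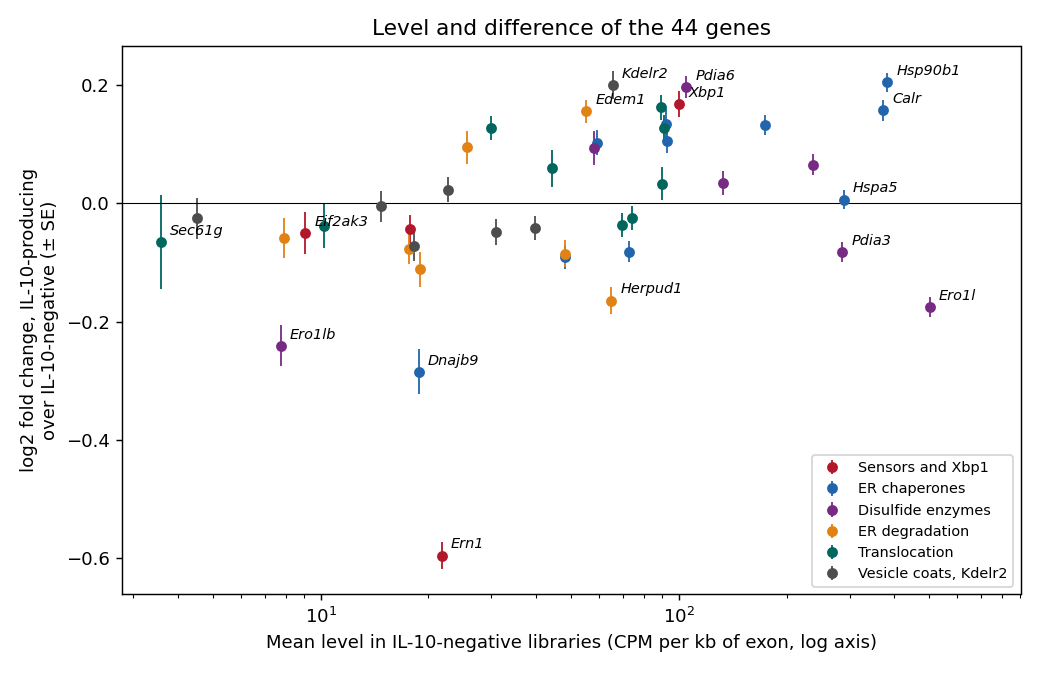
Each of the 44 genes by its mean level in IL-10-negative libraries (CPM per kb of exon, log axis) and its log2 fold change (± SE), coloured by role. Genes that rose stood at 25.6 CPM per kb (Edem2) or above, and genes that fell at 7.75 CPM per kb (Ero1lb) or above. Hsp90b1 (382 CPM per kb, 0.20) and Ero1l (503 CPM per kb, -0.18) lie at the right and Ern1 (21.8 CPM per kb, -0.60) at the bottom.

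Summed over each role, levels moved by a few percent. The 10 chaperones summed to 6523 to 6557 CPM in IL-10-producing and to 6084 to 6117 CPM in IL-10-negative libraries, a ratio of 1.07. The 7 disulfide enzymes summed to 4787 to 4857 against 5046 to 5133 CPM, a ratio of 0.949, and Ero1l alone made up 2658 of the 5077 CPM in IL-10-negative cells. The sums of the translocation genes (1957 ± 8.82 against 1882 ± 15.8 CPM) and of the sensors (696 ± 6.27 against 723 ± 5.28 CPM) also lay apart. Those of degradation (1067 ± 1.25 against 1063 ± 4.29 CPM) and coats (1099 ± 9.02 against 1102 ± 2.98 CPM) overlapped. A role sum follows its most abundant genes, so the near-equal degradation sums stand beside 6 changed genes of 7.

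A further 110 genes of the pathway, from lists by role, were read from the same fit. Of these 20 rose (18.2%), 28 fell (25.5%) and 62 did not pass, against 17.1% higher and 18.6% lower of all genes tested. Of the 9476 genes at or above the level of the lowest of the 44, 25.5% were higher and 23.0% lower. With library size only, 13 rose and 43 fell. With TMM, the shares higher and lower were 11.8% and 52.9% in stress signalling, 22.2% and 11.1% in folding, and 0% and 38.9% in degradation. In translocation they were 16.7% and 27.8%, in N-glycosylation 50% and 8.33%, and in coats and cargo 18.5% and 14.8%. Of 17 genes of stress signalling, 9 fell and 2 rose (median difference -0.10). Trib3, a pseudokinase induced by ATF4 and CHOP, fell from 33.7 ± 0.891 to 15.8 ± 1.15 CPM, a log2 difference of -1.09 (SE 0.053, edgeR adjusted p = 1.63e-14). Ddit3, which encodes CHOP, a transcription factor of prolonged stress, fell from 19.9 ± 0.544 to 12.3 ± 0.294 CPM, a difference of -0.68 (SE 0.057). Trib3 and Ddit3 were the only signalling genes to pass the test against 1.2-fold.

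Trib3, Ddit3 and Ppp1r15a are genes that PERK can act on, and its own gene Eif2ak3 did not pass. Whether PERK or stress of the ER had a part in the falls of these genes was not tested. Ppp1r15a encodes GADD34, which directs the removal of phosphate from eIF2α, and fell from 46.0 ± 2.44 to 36.2 ± 0.529 CPM. Atf4, a transcription factor through which PERK can act on such genes, fell by 0.07, from 482 ± 5.26 to 460 ± 3.86 CPM. It lies outside the naming rule and was chosen after its values were seen. The 2 signalling genes that rose were Eif2s1, which encodes eIF2α itself (0.11), and Ppp1r15b, a constitutive relative of Ppp1r15a (0.07). The call of Ppp1r15b was lost with library size only and without IL-10-negative replicate 1.

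In folding, 4 of 18 genes rose and 2 fell. Tmx1, a membrane-bound disulfide isomerase, rose by 0.28 and Prdx4, a peroxiredoxin of the ER, by 0.19. Mzb1, a cochaperone of B and plasma cells, rose by 1.64 but from 0.184 ± 0.0763 to 0.588 ± 0.226 CPM. In the same libraries Jchain (1.73 against 0.152 CPM) and Igkc (6.38 against 2.01 CPM), markers of antibody-secreting cells, were higher, while Cd79a, Ms4a1 and Pax5, markers of B cells, fell. Sdc1 (2.73 against 2.81 CPM), a marker of plasma cells, and Cd79b did not pass. The part of such cells in the value of Mzb1 was not tested. Sdf2 and Cnpy3 fell by 0.19 and 0.14. The call of Cnpy3 was lost without IL-10-producing replicate 2 or IL-10-negative replicate 3.

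Of 18 further degradation genes 7 fell and 11 did not pass (median difference -0.06). Ubxn4, which tethers the p97 ATPase to the ER, fell by 0.22, Herpud2, a relative of Herpud1, by 0.20, and Vimp, a membrane anchor of the same ATPase, by 0.12. In translocation 3 of 18 rose and 5 fell. Srp72 and Srp54b of the signal recognition particle and Sec11a of the signal peptidase rose by 0.08, 0.13 and 0.09. Srprb, Srp14 and Sec11c, from the same machines, fell by 0.12, 0.11 and 0.11. The calls of Sec11a and Srp54b were lost with library size only, and that of Srp54b also without IL-10-producing replicate 1 or 3 or IL-10-negative replicate 3.

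Of 12 genes of N-glycosylation 6 rose, 1 fell and 5 did not pass (median difference 0.06). Magt1, Rpn1 and Stt3a, subunits of the oligosaccharyltransferase that attaches glycans to proteins in the ER, rose by 0.19, 0.13 and 0.11. Krtcap2, another subunit, fell by 0.06, and its call was lost in 9 of 15 alternatives. Among 27 further coat and cargo genes 5 rose and 4 fell. Lman1, a lectin that carries glycoproteins out of the ER, rose by 0.18, Copb2 of COPI by 0.09, and Kdelr3, a second KDEL receptor of low level, by 0.71 (5.67 ± 0.558 against 3.47 ± 0.144 CPM, SD, n = 3). Kdelr1, the remaining KDEL receptor, did not pass, at 87.2 ± 2.06 against 89.1 ± 2.20 CPM. Mia3, which loads large cargo, and the COPI genes Cope and Copz1 fell by 0.14, 0.11 and 0.11. Each of these 3 falls lost its call without 1 library: IL-10-negative replicate 3 for Mia3, IL-10-negative replicate 1 for Cope and IL-10-producing replicate 3 for Copz1.

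**Figure D4:**
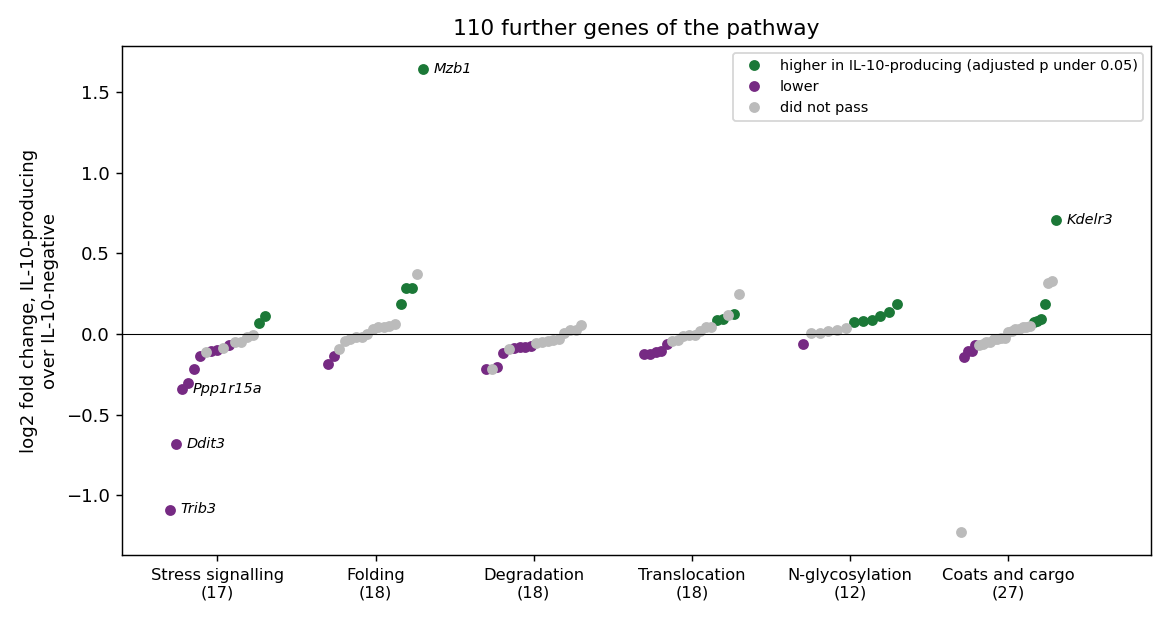
Log2 fold changes of the 110 further pathway genes, grouped by role and sorted within each group (green rose, purple fell, grey did not pass). Trib3, Ddit3 and Ppp1r15a stand below the rest of stress signalling, and Mzb1 (1.64) and Kdelr3 (0.71), both of low level, stand above their groups; the lowest grey point is Sec31b, at -1.23 with 0.197 against 0.434 CPM.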

How the data were processed

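The submitters' processing notes name STAR 2.5.3a, bcl2fastq 2.17.1.14, Partek and the build mm10; whether counting used strand is not given in the sources used here. The deposited count table holds estimated counts (50.4% of values not whole) that the authors did not normalize between libraries. They also deposited a normalized signal table (13824 genes), whose values equal count plus 1 times 1 factor per library (within 1%). Counts were rounded and tested in edgeR 4.0.16 (R 4.3.3) with TMM, filterByExpr defaults (minimum count 10, minimum total 15), group as the only term, glmQLFTest and Benjamini-Hochberg adjustment; glmTreat tested against 1.2-fold. The fit ran over the whole table and was tested on simulated data. Pairs of libraries of a population differed by 2.39 to 2.96 times the Poisson expectation, so none was a copy.

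Exon lengths came from GENCODE M21; 43 of the 44 identifiers matched, and Syvn1 without its version. Positions are those of the deposited table on GRCm38 (mm10), 1-based. Promoters came from RefSeq (GRCm38.p6), with 3 elements searched on both strands; Atf6, Hyou1, Manf, Derl1, Sec61a1, Ssr2 and Kdelr2 had no entry.

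The 44 genes and all lists were chosen with earlier results of these data known. By rule, the sensors, Hspa5 and changed genes with an absolute log2 difference of at least 0.3 were given by library, and from each further list at most 3 genes per direction with the smallest p. Of the further lists, Atf4, Ssr4, Kdelr1, Sec31b, Srp54c and Derl3 were given outside this rule. Alternatives changed the scaling (library size only, or size factors of DESeq2), the filter (none, or 50 counts in at least 3 libraries), the tool (limma-voom of limma 3.58.1, DESeq2 1.42.0, or limma on the authors' normalized table as log2 of value plus 1) and the design (a block for the replicate number, each library left out in turn). Correction for GC content and transcript length was added after the data were seen.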

Additional observations from a re-analysis of the deposited data

How the results depend on the processing

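The count of changed genes among the 44 stayed between 25 and 31 over 15 alternatives, against 28, and none of those 28 turned its direction. Leaving out a library in turn gave 25 to 27 changed genes (15 to 16 higher, 10 to 11 lower) and 42 to 46 of the 110 further pathway genes, against 48. Library size only gave 31 (13 higher and 18 lower) and 56 (13 higher and 43 lower), and the correction for GC content and transcript length 26 and 56. Ern1 was the only one of the 44 past 1.2-fold in each of the 11 alternatives run with that test. Of 660 values of the 44 genes under an alternative, 637 kept their side of the threshold, 16 lost it and 7 gained it; the cause was not tested. Whether the replicate numbers pair the libraries is not in the labels. Same-numbered libraries of the populations had correlations of -0.05, -0.02 and -0.03 between their deviations from the population means. Those of differently numbered libraries lay between 0.0017 and 0.028. Such small values cannot tell whether libraries share an origin, since noise between libraries can hide it. With the replicate number as a block, 28 of the 44 genes changed, all 28 of them the same genes, and 49 of the 110. With 3 libraries per population of unknown origin, the calls at every size of difference rest on the narrow spread between these libraries.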

Other observations

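Outside the 44 genes, 28 genes of the RefSeq table held an ERSE in their promoter window, and 9 of these were tested. Of the 9, 2 rose and 7 did not pass by edgeR's quasi-likelihood test, beside 17.1% higher and 18.6% lower over all genes tested. Acacb, an acetyl-CoA carboxylase, rose from 3.15 ± 0.159 to 4.06 ± 0.184 CPM (adjusted p = 0.0146), and Hnrnpa3, an RNA-binding protein, from 173 ± 9.79 to 189 ± 5.11 CPM (adjusted p = 0.00176). Derl3, a derlin of the same family as Derl1, was among the 7, at 0.988 ± 0.162 against 1.16 ± 0.142 CPM (SD, n = 3).

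The near-identical copies of Srp54a went apart. Srp54b stood at 37.5 ± 1.34 against 34.3 ± 1.504 CPM (log2 difference 0.13, edgeR adjusted p = 0.0259), Srp54c at 45.1 ± 1.92 against 49.3 ± 2.92 CPM (-0.12, adjusted p = 0.0237) and Srp54a at 53.0 ± 1.86 against 54.5 ± 2.29 CPM (-0.04, adjusted p = 0.471). How the counting divided reads among the copies is not given in the sources used here.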
